A study of Mus musculus with 2 samples.

Results

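The genes Ccr2, Ccr4, Ccr6, Ccr8, Ccr9, Cxcr3, Cxcr4, Cxcr5 and Cxcr6 encode chemokine receptors that guide T cells into tissues, and they are 9 of the 21938 protein-coding genes examined. They were chosen by name, and accessible regions were tied to them by position in the GENCODE M21 annotation of the mouse build mm10. A region belonged to a gene when it lay in the gene body, or when the strongest summit of the region had a transcription start site (TSS) of that gene as its nearest protein-coding TSS within 100 kb. By this rule the 9 genes held 34 of 26090 regions. Nearness to a TSS does not show which gene a region acts on.

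Chromatin accessibility was measured by ATAC-seq, in which a transposase inserts sequencing adapters into open DNA, in primary activated regulatory T cells of male adult mice, 4 months of age. The animals are labelled with the Foxp3CreERT2 allele, a tamoxifen-inducible Cre recombinase driven from the Foxp3 gene, and with the Rosa26YFP reporter allele, so every cell measured comes from this background. There are 2 libraries, numbered as technical replicates of a single biological replicate, and they form 1 group with no control. The labels also trace the cells to bone marrow haematopoietic cells and do not say how the cells were activated or sorted.

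The deposited peak lists describe both libraries together, so no value below has an SD, an n of animals or a test between samples, and the depth behind the lists is unknown. Accessibility in a list of this kind cannot tell fewer cells with an open region apart from less opening per cell. A peak's signal value, taken as enrichment, was written by the authors' peak caller, and it is used to rank regions within a list. The main list holds peaks past an irreproducible discovery rate (IDR) of 0.05, which compares the ranks of a peak in a pair of inputs. It is called the thresholded list, and the longer pseudoreplicated list was read at the same loci.

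Chemokine receptors are G protein-coupled receptors that sit in the plasma membrane and steer a cell toward sources of chemokine, the small secreted proteins that bind them. Regulatory T cells carry sets of these receptors that differ with the tissue they enter: CCR4 and CCR8 are known from skin and other barrier tissues, CCR6 and CCR9 from mucosal sites, CXCR5 from B cell follicles, CXCR3, CXCR6 and CCR2 from inflamed tissue and CXCR4 from bone marrow. Ligand binding frees G protein subunits and activates small GTPases that drive migration and integrin adhesion, while receptor kinases, arrestins and RGS proteins end the signal.

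The labelled cell type was checked against its defining markers. Of 5 regulatory T cell genes, 4 had a region at a promoter (Foxp3, Il2ra, Ctla4 and Ikzf2, with Tnfrsf18 as the exception), and together the 5 genes held 39 regions. Of 6 T cell genes, 5 had a promoter region (Cd3e, Cd3g, Cd5, Cd28 and Lck), the exception being Cd4. A promoter region was listed for 1 of 5 B cell genes (Pax5), 0 of 6 myeloid genes, 0 of 4 natural killer cell genes and 1 of 2 CD8 genes (Cd8b1). Of all protein-coding genes 49.1% had one in the thresholded list, and such short marker lists describe the label without testing it. The pseudoreplicated list added promoter regions for Cd4, the B cell gene Cd22, the myeloid gene Cd14 and the natural killer cell gene Eomes. In that list 55.7% of all genes had one. Klrb1c, a natural killer cell gene, held 8 regions away from its promoter.

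Sequences are shown for promoters that differ in CpG content and for the strongest distal region of Ccr2, Ccr9, Cxcr4 and Cxcr5. The single thresholded region of Cxcr3 is shown too. Accessibility at these stretches is described below, and whether it depends on their sequence was not tested. The sequences all come from GRCm38.p6, the assembly of mm10, and are written on the strand of the receptor gene. Capitals mark every match, on either strand, to 7 motifs. For ETS factors these are AGGAAGT and, with the same last 6 letters, CCGGAAGT. RUNX factors are stood for by the letters TGTGGTT. The AP-1 motif is written TGANTCA. The motif of T-box factors is given as AGGTGTGA. An E-box motif is spelled CACCTG. The remaining motif, of KLF and SP factors, is GGGCGG. Of the 9 genes, 8 had a promoter in the RefSeq table, and 5 of these are printed as the 250 bases before the start. The Ccr4 promoter is chr9:114496545-114496794 (minus strand), the Ccr8 promoter chr9:120091883-120092132 (plus), the Cxcr6 promoter chr9:123806227-123806476 (plus), the Cxcr4 promoter chr1:128592300-128592549 (minus) and the Ccr9 promoter chr9:123766961-123767210 (plus).
Ccr4 promoter: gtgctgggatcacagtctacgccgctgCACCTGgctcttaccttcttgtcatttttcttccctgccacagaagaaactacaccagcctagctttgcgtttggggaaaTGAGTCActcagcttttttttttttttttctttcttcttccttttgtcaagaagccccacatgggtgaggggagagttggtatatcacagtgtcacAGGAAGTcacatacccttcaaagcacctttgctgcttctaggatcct
Ccr8 promoter: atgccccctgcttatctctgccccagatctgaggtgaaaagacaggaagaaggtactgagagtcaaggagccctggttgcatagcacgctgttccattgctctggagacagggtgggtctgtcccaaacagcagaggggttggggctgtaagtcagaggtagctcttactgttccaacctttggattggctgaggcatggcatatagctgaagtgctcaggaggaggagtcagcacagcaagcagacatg
Cxcr6 promoter: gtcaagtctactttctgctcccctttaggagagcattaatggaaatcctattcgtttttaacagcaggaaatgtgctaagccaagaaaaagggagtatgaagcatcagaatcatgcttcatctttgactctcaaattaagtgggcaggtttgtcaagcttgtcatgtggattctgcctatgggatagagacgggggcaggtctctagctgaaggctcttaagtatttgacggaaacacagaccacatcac
Cxcr4 promoter: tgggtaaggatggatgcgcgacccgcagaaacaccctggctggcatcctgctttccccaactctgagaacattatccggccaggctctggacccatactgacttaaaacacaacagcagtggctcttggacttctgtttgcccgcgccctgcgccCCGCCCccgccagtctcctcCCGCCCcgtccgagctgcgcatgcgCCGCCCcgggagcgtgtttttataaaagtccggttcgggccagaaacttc
Ccr9 promoter: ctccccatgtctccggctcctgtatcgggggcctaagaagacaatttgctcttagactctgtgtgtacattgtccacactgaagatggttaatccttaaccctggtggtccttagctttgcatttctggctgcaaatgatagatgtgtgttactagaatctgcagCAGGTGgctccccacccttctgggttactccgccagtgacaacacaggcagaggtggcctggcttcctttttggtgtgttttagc
Of these stretches, the Cxcr4 promoter holds 19 CpG dinucleotides and 3 matches to GGGCGG. The Ccr4, Cxcr6 and Ccr9 promoters hold 3 CpG each and the Ccr8 promoter holds 1, with no GGGCGG in any of the 4. The Ccr4 promoter has an AP-1 match at position 108 and an ETS match at position 204, counted from its first printed base. The Ccr8 and Cxcr6 stretches hold no match to the marked motifs. Regions of the thresholded list cover the Ccr4, Ccr8 and Cxcr4 stretches and overlap that of Cxcr6, and no region overlaps that of Ccr9.

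The windows below reach 100 bases to each side of a summit, 201 bases in all, and are named by the distance of the summit from the nearest TSS of the gene, negative when upstream. The Ccr2 window is chr9:124068478-124068678 (plus strand), the Ccr9 window chr9:123754471-123754671 (plus), the Cxcr4 window chr1:128548772-128548972 (minus), the Cxcr5 window chr9:44533218-44533418 (minus) and the Cxcr3 window chrX:101737276-101737476 (minus).
Ccr2 -33372 bp: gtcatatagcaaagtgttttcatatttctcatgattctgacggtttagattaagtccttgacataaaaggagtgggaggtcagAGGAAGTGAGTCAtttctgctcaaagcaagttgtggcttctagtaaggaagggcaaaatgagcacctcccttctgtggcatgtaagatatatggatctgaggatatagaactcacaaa
Ccr9 -12598 bp: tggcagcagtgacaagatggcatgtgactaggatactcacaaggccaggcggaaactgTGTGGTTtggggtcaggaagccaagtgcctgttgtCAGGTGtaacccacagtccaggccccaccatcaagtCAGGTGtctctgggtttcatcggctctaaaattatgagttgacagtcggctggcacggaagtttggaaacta
Cxcr4 +43418 bp: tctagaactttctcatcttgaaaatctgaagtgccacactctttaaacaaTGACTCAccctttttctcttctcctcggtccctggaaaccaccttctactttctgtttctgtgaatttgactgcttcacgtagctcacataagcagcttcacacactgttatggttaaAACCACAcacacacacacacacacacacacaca
Cxcr5 -6736 bp: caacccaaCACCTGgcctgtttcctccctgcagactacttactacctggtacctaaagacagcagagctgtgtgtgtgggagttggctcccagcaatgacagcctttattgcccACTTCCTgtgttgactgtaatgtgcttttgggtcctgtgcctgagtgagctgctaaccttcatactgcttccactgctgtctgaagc
Cxcr3 -3107 bp: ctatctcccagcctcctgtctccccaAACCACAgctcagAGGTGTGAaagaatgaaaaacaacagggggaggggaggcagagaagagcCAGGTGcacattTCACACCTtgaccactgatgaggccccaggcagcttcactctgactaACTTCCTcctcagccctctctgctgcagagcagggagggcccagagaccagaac
In the Ccr2 window an ETS match at position 84 and an AP-1 match at position 90 share a base. An AGGAAGT match that overlaps an AP-1 match occurred within 100 bp of the strongest summit in 41 of all regions (0.157%). The other ETS spelling was left out of this count. The Cxcr3 window holds T-box matches at position 40 and at the summit base, the latter on the other strand. A window with 2 or more T-box matches was found in 3 of all regions (0.0115%), the Cxcr3 region among them. The Ccr2 and Cxcr3 patterns were picked from these windows and then counted over all regions. Their rarity is thus a description and was not tested. In the Ccr9 window a RUNX match at position 59 is followed by CACCTG matches at positions 94 and 130, both on the opposite strand.

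Each of the 9 genes had at least 1 region in the thresholded list, against 58.2% of all protein-coding genes. A promoter region, meaning a region within 1000 bp of any TSS of the gene, was present at 5 of the 9 genes (Ccr4, Ccr8, Cxcr4, Cxcr5 and Cxcr6), against 49.1% of all genes (Wilson 95% interval 48.4 to 49.8%). With 9 genes that count is close to the background. When 1 TSS per gene was used, its 5′ end, Ccr4 and Cxcr5 dropped out and 3 of the 9 genes had a promoter region, against 45.2% of all genes. The promoters of Ccr2, Ccr6, Ccr9 and Cxcr3 had none. Only 7 of the 34 regions lay at a promoter of these receptor genes, 26 were distal (over 1000 bp from every protein-coding TSS) and 1 was the promoter of Lztfl1, a gene inside the longest Ccr9 transcript.

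The receptor genes held a mean of 3.78 regions and a median of 2, against a mean of 1.27 and a median of 1 over all genes. Their territories, the bases nearest to a TSS of the gene, had a median of 61.7 kb against 45.0 kb. Over the summed territories there were 5.31 regions per 100 kb for the receptors and 1.47 for all genes. By gene this density ran from 1.40 at Ccr9 and 1.45 at Cxcr3, just below the summed value of all genes, to 14.2 at Cxcr5. The median of the single-gene densities was 0.734, so Ccr9 and Cxcr3 were above the median gene. The 2 regions each of Ccr2, Ccr8, Ccr9 and Cxcr6 were met or passed by 27.5% of all genes, and the 1 region of Cxcr3 by 58.2%. The summit lay upstream of the nearest TSS of the gene in 23 regions and downstream in 11. By distance, 7 summits were within 1000 bp of that TSS, 15 within 10 kb, 24 within 20 kb and all 34 within 50 kb. By location, 15 summits were intergenic, 9 were in introns, 8 at promoters and 2 in untranslated parts of Trim71 beside Ccr4.

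**Figure D1:**
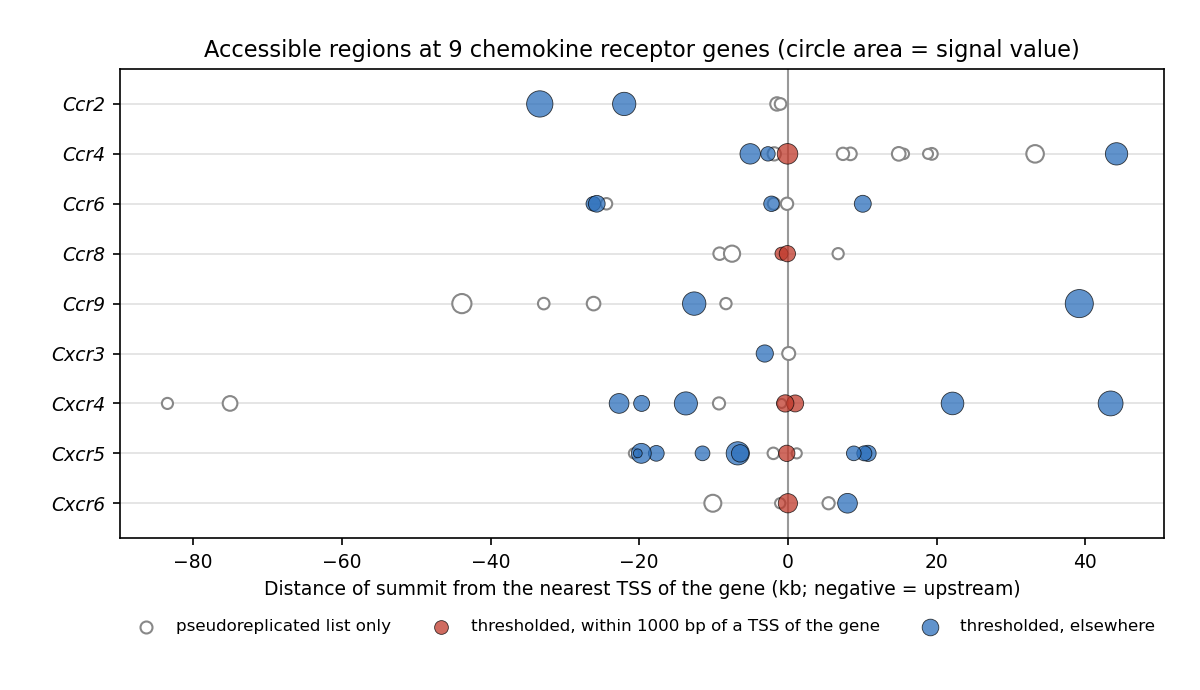
Each circle is an accessible region at its summit's distance in kb from the nearest TSS of the gene, with area in proportion to its signal value. Filled circles are thresholded regions, red within 1000 bp of a TSS of the gene and blue elsewhere, and open circles are in the pseudoreplicated list alone. Cxcr5 has 10 filled circles and Cxcr3 has 1, and Ccr2, Ccr6, Ccr9 and Cxcr3 have none in red.

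Signal at the receptor promoters was low for their class. The 7 promoter regions ran from 5.58 to 13.9 with a median of 9.51, and all 7 lay below the median of 15.2 over the 11374 promoter regions of the list, whose middle range (quartiles) was 10.8 to 19.7. This was not particular to the receptors. The strongest promoter regions of Foxp3 (9.99), Il2ra (10.03), Ctla4 (6.24) and Ikzf2 (6.57) were also below 15.2, as were those of Ccr7 (12.5) and Ccrl2 (6.84). Of the T cell markers, Cd5 (9.39) and Lck (12.2) were below it and Cd3e (16.5), Cd3g (17.3) and Cd28 (15.3) above. The 26 distal regions ran from 2.57 to 22.8 with a median of 9.89, and 12 of them were above the distal median of 12.7, whose quartiles were 9.45 and 16.5. Distal signals above the upper quartile occurred at Ccr2, Ccr9, Cxcr4 and Cxcr5. More than 1 summit was listed in 10 of the 34 regions, against 52.9% of all regions and 37.5% of distal ones.

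**Figure D2:**
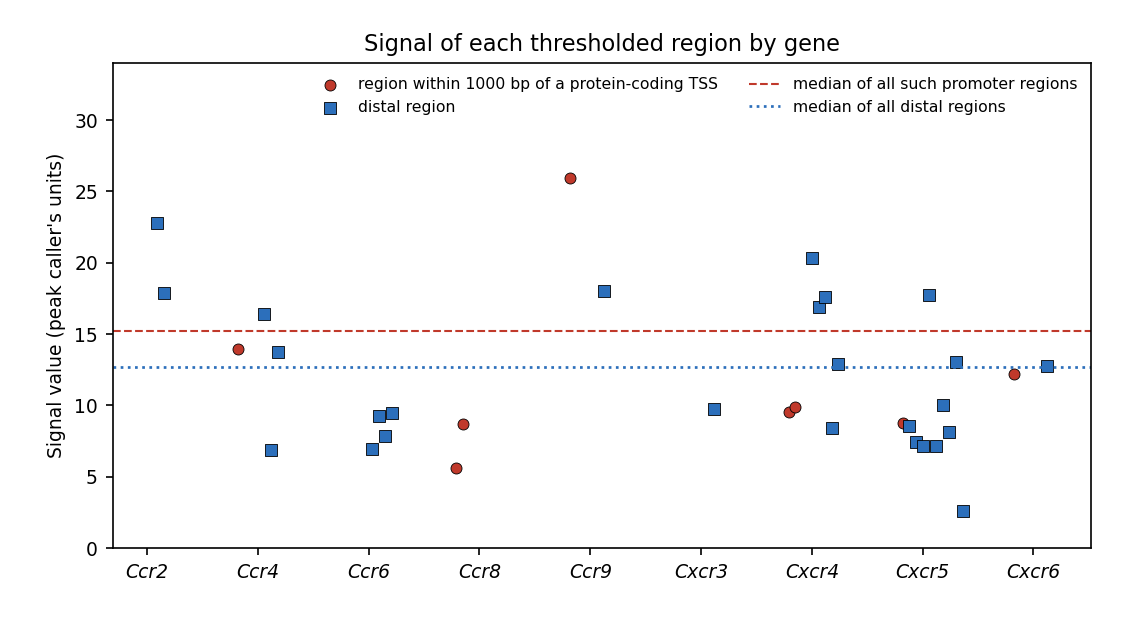
Signal value of the 34 thresholded regions by gene, with circles for regions within 1000 bp of any protein-coding TSS and squares for distal regions, and the median of each class over the whole list as a line. The promoter circles of the receptor genes lie under the dashed line at 15.2, and the circle at 26.0 over Ccr9 is the Lztfl1 promoter.

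Among the receptors of lymphoid follicles and marrow, Cxcr5 and Cxcr4 had the most regions. Cxcr5, the receptor for CXCL13 that brings T cells to B cell follicles, lies on the minus strand at chr9:44511787-44561877 and held 10 regions in a territory of 70.5 kb. As many or more were held by 0.966% of all genes, and by 0.292% of the 2737 genes with a territory within 1.25 times its size. These shares rest on the count of 10, which includes a very weak region described below. At an IDR of 0.01 or below Cxcr5 kept 7 regions, the very weak one (IDR 0.00405) among them. Cxcr4 also kept 7, and no share was computed for that count. With each summit counted both genes had 13. Its promoter region, chr9:44526270-44527063, had a signal of 8.77 and covered the TSSs at 44526421 and 44526582. The 3 starts farther upstream (44556286, 44556391 and 44561877) had no thresholded region within 1000 bp.

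The strongest Cxcr5 region, chr9:44532979-44533627, lay in intron 2 with its summit 6736 bp upstream of a start, a signal of 17.7 (−log10 p 175), at the 80.9 percentile of distal signals. Downstream, a cluster of regions in intron 3 held signals of 8.58, 7.43 and 7.13 at 10791, 10289 and 8872 bp. A further region of intron 2, 11482 bp upstream, had a signal of 7.18. Beyond the gene's 5′ end lay 4 regions. The region 6419 bp upstream of the outermost start had a signal of 10.01 and those at 17694 and 19715 bp had 8.15 and 13.04. All but 2 of the 9 regions away from the promoter thus fell below the distal median of 12.7.

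The fourth of these outer regions, 20188 bp upstream, was the weakest of all 34, with a signal of 2.57 (−log10 p 4.39), and 0.136% of distal regions were as weak or weaker. It also was the 1 receptor region missing from the pseudoreplicated list, as were 51 (0.195%) of all thresholded regions. Its ranking values in the inputs of the ranked list, 30.6 and 46.7, are those of the neighbouring region at 19715 bp, and both have an IDR of 0.00405. The outer regions at 17694, 19715 and 20188 bp overlap exons of Gm47230, a long non-coding RNA gene on the opposite strand (chr9:44579608-44584652). That at 17694 bp, chr9:44579375-44579733, covers the 5′ end of Gm47230, and it is distal only with respect to protein-coding genes. When the nearest TSS of any annotated gene was used, Cxcr5 kept 7 regions.

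Cxcr4, the receptor for CXCL12, which retains cells in bone marrow, lies on the minus strand at chr1:128588199-128592293. It held 7 regions, a number met or passed by 2.52% of all genes and by 6.98% of the 2136 genes of similar territory. Its own territory was 187 kb, the widest of the 9, so its 3.73 regions per 100 kb were below the 14.2 of Cxcr5. Adjoining regions cover the promoter, chr1:128591858-128592929 with a signal of 9.86 and chr1:128591086-128591707 with 9.51, at the 20.2 and 18.7 percentiles of promoter signals.

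Stronger regions flanked Cxcr4 on both sides. Downstream, chr1:128548507-128549397 (summit at 43418 bp) had a signal of 20.4, at the 89.7 percentile of distal regions, and chr1:128569909-128570556 (22152 bp) had 16.9. Upstream, the region at 13719 bp had 17.6 with a −log10 p of 182. The region at 19667 bp upstream ranked low by signal (8.40, percentile 18.3) and high by −log10 p (140, percentile 85.4). The region at 22703 bp upstream, chr1:128614608-128615757, spanned 3 summits with a signal of 12.9 (−log10 p 277), at the 51.7 and 97.7 percentiles. The signal and the −log10 p thus order these upstream regions differently.

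Of the barrier tissue receptors, Ccr4 binds CCL17 and CCL22 and lies on the minus strand at chr9:114490316-114504916. It held 4 regions, a number met or passed by 8.47% of all genes. Its promoter region, chr9:114496438-114496850, had the highest signal of the 7 receptor promoter regions, 13.9, with the summit 44 bp upstream of a start. The strongest region of the gene lay 44217 bp downstream in intron 11 of Glb1, the lysosomal beta-galactosidase gene, with a signal of 16.4 (−log10 p 118). The other regions, 5064 and 2674 bp upstream, had signals of 13.8 and 6.85 and lay over untranslated sequence of Trim71, which encodes an RNA-binding ubiquitin ligase. The distal start of Ccr4 at 114504916 had no region within 1000 bp in either list.

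Ccr8, the receptor for CCL1, lies on the plus strand at chr9:120092114-120094906 and was the 1 gene of the 9 with its thresholded regions at the promoter alone. The region chr9:120091764-120092244, with its summit 66 bp upstream of the start, had a signal of 8.73 (−log10 p 63.3). The second, chr9:120091065-120091608, had a signal of 5.58, the lowest of the 7 promoter regions, at the 3.68 percentile. Further regions at Ccr8 appeared in the pseudoreplicated list alone, with signals of 8.59, 5.14 and 4.16 at 7507 and 9178 bp upstream and 6765 bp downstream.

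At the mucosal receptors no thresholded region lay at a promoter. Ccr6, the receptor for CCL20, lies on the plus strand at chr17:8236043-8257141 and had 4 regions, all weak. Their signals were 6.97 and 9.27 at 26173 and 25707 bp upstream, 7.86 at 2205 bp upstream and 9.46 in intron 1, 10079 bp downstream of the nearest start. The highest of the 4 was at the 25.4 percentile of distal signals. At an IDR of 0.01 or below 1 of the 4 was left, that at 25707 bp upstream. The pseudoreplicated list added chr17:8242279-8242559 over the start at 8242526, with a signal of 4.99.

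Ccr9, the receptor for CCL25 that directs lymphocytes to the small intestine, spans chr9:123678439-123784330 on the plus strand because 1 transcript starts far upstream. Its strong region, chr9:123754352-123754844, lay in intron 1, 12598 bp upstream of the next group of starts, with a signal of 18.04 (percentile 82.1 of distal regions) beside a −log10 p of 168 (percentile 89.98). The second region in its body, chr9:123717348-123718062 with a signal of 26.0 (−log10 p 334), is the promoter of Lztfl1, a gene of ciliary transport, and was given to Ccr9 by the gene body rule alone. Ccr9 was the 1 receptor without a promoter region in either list. From the start at 123767169 the nearest edge of a region was 12325 bp away in the thresholded list and 8187 bp away in the pseudoreplicated list.

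Among the receptors of inflamed tissue, Ccr2, which binds CCL2 and related ligands and is known from monocytes as well as T cells, lies on the plus strand at chr9:124101950-124113557. Its 2 regions were both intergenic and strong. The region chr9:124068337-124068979, 33372 bp upstream, had the highest distal signal of the 34 regions, 22.8, at the 95.03 percentile, with a −log10 p of 158. The region chr9:124079621-124080323, 22015 bp upstream, had a signal of 17.9 at the 81.3 percentile and a −log10 p of 61.4, near the middle of its class. In the pseudoreplicated list regions of 5.90 and 4.39 lay 1467 and 986 bp upstream of the start.

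Cxcr3, the receptor for CXCL9 and CXCL10 that marks type 1 responses, lies on the minus strand at chrX:101731535-101734269 and had the fewest regions. Its 1 region, chrX:101737217-101737773, held 2 summits with the strongest 3107 bp upstream of the start. The signal was 9.77 and the −log10 p 37.3, at the 27.2 and 24.6 percentiles, and its IDR of 0.0118 put it outside the stricter list. The promoter was in the pseudoreplicated list alone, as chrX:101733998-101734348 with a signal of 5.55.

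Cxcr6, the receptor for membrane-bound CXCL16, lies on the plus strand at chr9:123806475-123811760, inside Fyco1 on the opposite strand, a gene of vesicle transport. Its promoter region, chr9:123806260-123806676, had its summit 4 bp past the start, a signal of 12.2 (−log10 p 43.3). Its IDR of 0.0103 was just outside 0.01. The other region, chr9:123814008-123814864 in intron 14 of Fyco1, lay 8026 bp downstream with a signal of 12.8, close to the distal median of 12.7.

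The pseudoreplicated list held 64 receptor regions with a median of 6 per gene against 1 for all genes, and each of the 9 genes had a region against 68.4% of all genes. A promoter region was present at 8 of the 9 genes in that list, all but Ccr9, against 55.7% of all genes. Of its 64 receptor regions 33 overlapped a thresholded one (51.6%), close to the 52.0% over the whole list. The other 31 had signals of 2.69 to 12.1 with a median of 4.88 and an IDR of 0.0507 to 0.388, and 21 of them sat at the highest IDR of the list's receptor peaks. Ccr4 gained the most, 8 regions, 7 of them downstream of the gene's starts at signals up to 10.1. Cxcr5 gained 3 and lost 1, ending at 12.

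The ranked list was read as giving each peak a −log10 p in 2 inputs, and the sources used here do not say what these inputs were. At the 34 receptor regions the larger of the values was a median of 1.28 times the smaller, with a range of 1.01 to 1.82. All 34 ratios were under 2, as were 85.0% of those over all thresholded peaks, where the median was also 1.28. Each receptor ratio is that of a region's strongest summit, while the 85.0% counts single peaks, so the shares differ in unit. Of the 31 regions in the pseudoreplicated list alone, 6 had a ratio over 2, up to 5.24. The IDR rule orders regions by these same values, so a narrow spread is built into the thresholded list.

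**Figure D3:**
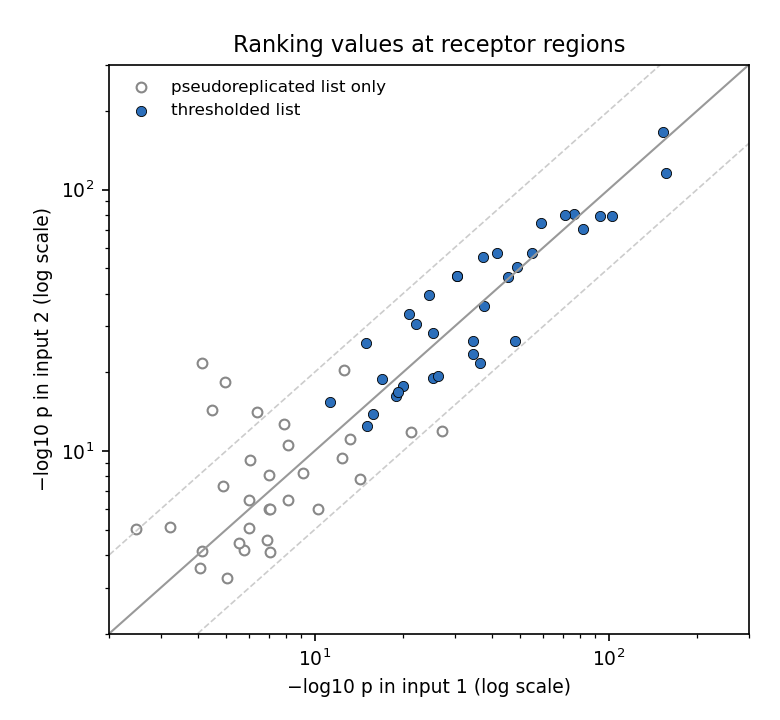
The −log10 p of each receptor region in input 1 and input 2, on log axes, with the line of equal values and dashed lines at ratios of 2. The 34 thresholded regions lie between the dashed lines from 11.3 upward, and 6 of the 31 open circles fall outside them.

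Most of the receptor promoters were poor in CpG. The observed over expected CpG ratio was taken 500 bp to each side of each TSS, using the highest ratio of a gene. It was below 0.4 at 7472 of the 21938 genes and at 7 of the 9 receptors, from 0.172 at Ccr2 and 0.173 at Cxcr6 through 0.191 at Cxcr5, 0.224 at Ccr8, 0.244 at Cxcr3 and 0.262 at Ccr6 to 0.350 at Ccr4. Cxcr4 had a ratio of 0.625. Ccr9 reached 0.927 at the far upstream start 123678439, while the starts nearer its coding exons had 0.135 to 0.178.

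Among the 7472 genes with a ratio below 0.4, 8.49% had a promoter region in the thresholded list and 12.6% in the pseudoreplicated list. Of the 7 receptors in this class 4 had one in the thresholded list (Ccr4, Ccr8, Cxcr5 and Cxcr6) and 7 in the pseudoreplicated list. With 1 TSS per gene the thresholded count fell to 2 of 7 (Ccr8 and Cxcr6), against 7.04% of the class. The pseudoreplicated count fell to 4 of 7, against 10.4%. At ratios of 0.6 and above, 77.1% of 11524 genes had a thresholded promoter region, and of the receptors there Cxcr4 had one and Ccr9 did not. The class below 0.4 includes large receptor families of sensory neurons. When olfactory, vomeronasal and trace amine receptor genes were left out, 10.5% of the 6003 genes that remained had a thresholded promoter region. This comparison was added with the data in view, and it was not tested.

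**Figure D4:**
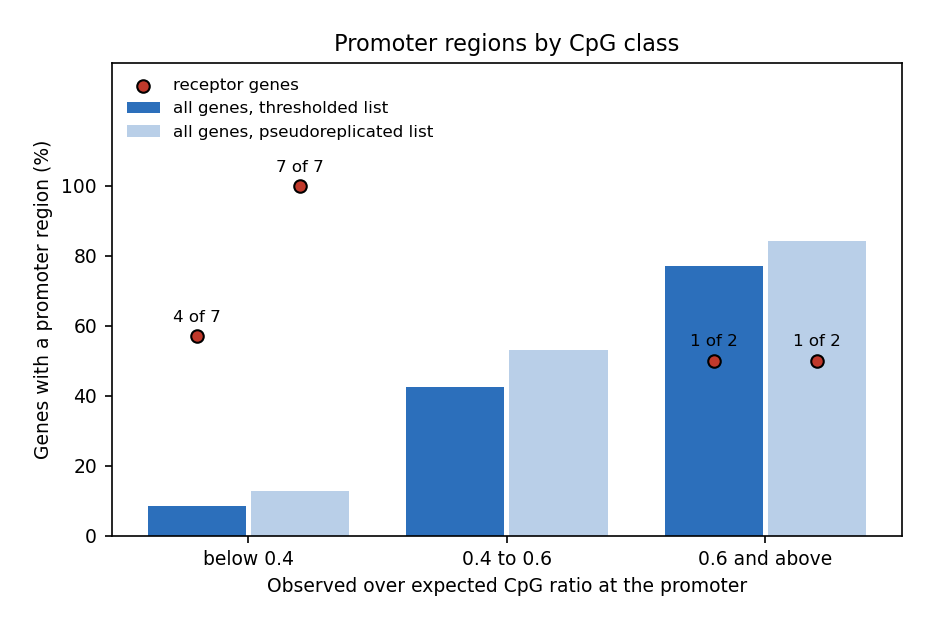
Percent of genes with a promoter region by CpG ratio class of the promoter, as bars for all protein-coding genes in the thresholded and pseudoreplicated lists and as red points for the receptor genes. In the class below 0.4 the bars stand at 8.49% and 12.6% and the receptor points are 4 of 7 and 7 of 7 genes.

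Motif letters were counted on both strands within 100 bp of the strongest summit in all 26090 regions and in the 34 receptor regions. CACCTG was present in 11 receptor regions (32.4%) of 7 genes, against 15.1% of all regions, and in 9 of the 26 distal ones (34.6%) against 17.3% of all distal regions. Cxcr5 held the most of the 11. Over every summit of a region, CACCTG was present in 12 of the 34, against 25.9% of all regions. GGGCGG was present in 1 receptor region, at Cxcr5, against 31.1% of all regions. That share was 56.8% for promoter regions and 11.3% for distal regions, and the 3 matches in the Cxcr4 promoter lay outside the window. The GC content of the windows had a median of 48.8% at distal receptor regions and 50.2% at the 7 receptor promoter regions, against 49.3% for all distal and 63.2% for all promoter regions. AGGAAGT was present in 6 receptor regions (17.6%), the share over all regions being 17.6%. Among distal regions alone it was present in 19.2% of those of the receptors, against 23.2%.

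The IRF motif was found in 5 receptor regions (14.7%), at Ccr6, Cxcr4 and Cxcr5, against 4.95% of all regions, and within 50 bp of a summit in 2, against 3.10%. The AP-1 motif was found in 5 receptor regions (14.7%) against 9.39% of all, the further E-box CAGCTG in 5 (14.7%) against 12.4% and the RUNX motif in 4 (11.8%) against 9.49%. Distal regions made up 26 of the 34 receptor regions but 14716 of all 26090, so these shares compare unlike mixes of class. Among distal regions alone the AP-1 share was 11.5% for the receptors against 13.6%, and the RUNX share 15.4% against 13.9%. There CAGCTG was in 19.2% against 13.7%, and the IRF motif in 15.4% against 6.62%. The ROR motif AGGTCA was found in 3 receptor regions (8.82%), against 8.88% of all regions. A motif found in 2 receptor regions is present in 5.88% of them. The ETS motif CCGGAAGT was found in 2 receptor regions, against 4.24% of all. The NFAT motif TGGAAAA was likewise found in 2, against 2.88%. The TCF and LEF motif CTTTGAA was found in 2 as well, against 4.29%. The GATA motif AGATAA was found in 2 receptor regions, at Ccr4 and Cxcr4, against 7.23%. The STAT motif TTCNNNGAA was found in 2 regions, both at Cxcr4, against 5.95%. The T-box and NF-kB motifs were each found in 1 receptor region and in 0.981% of all. The cyclic AMP response element TGACGTCA was found in 1, at Ccr2, against 2.11%. The CTCF motif was found in 1 region against 3.71%, and the TATA box TATAAA in 1 against 5.79%. Absent from all 34 windows was the other TCF and LEF spelling, CTTTGAT, found in 3.32% of all. The forkhead letters TGTTTAC were absent too, against 3.09% of all. The longer KLF motif GGGTGTGGC was absent, against 1.22%, as was the NRF1 motif, against 0.667%. The E-box CACCTG read on its other strand and AGGTGTGA share the letters AGGTG, and matches of the motifs may overlap. Forkhead letters missing from these windows say nothing about FOXP3 binding. With 34 regions, 1 region is 2.94%, so a difference of a few percent rests on 1 region.

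Among other chemokine receptor genes, promoter regions in the thresholded list included those of Ccr7, which leads T cells to lymph nodes (signal 12.5, 7 regions), and the atypical receptor gene Ccrl2 (6.84, 2 regions). The median over the list of other receptors was 1 region per gene, and 5 genes, Ackr1, Ackr2, Ackr3, Ackr4 and Cxcr2, had none. Any region was present at 10 of these 15 genes, against 58.2% of all genes. Cx3cr1 held 14 regions in its body, of which 2 had its TSS as the nearest, and Ccr1 held 5 with none at a promoter.

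Of 14 ligand genes of the 9 receptors, 2 had a promoter region, Ccl25 (signal 17.8) and Cxcl10 (13.1), and 9 had no region. Any region was present at 5 of the 14, against 58.2% of all genes. Ccl1, which encodes the ligand of CCR8, held 2 regions away from its promoter, and Ccl17 and Ccl20 held 1 each. No thresholded region was tied to Ccl22 or Cxcl16. Cxcl11 was not matched in the annotation.

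Of 31 genes that carry or end the receptor signal, 28 had a promoter region and 29 had any region, with a median of 3 and a total of 145. Of all genes 58.2% had any region. The median territory of the 31 genes was 77.5 kb, against 45.0 kb for all genes. The most were held by Rap1b (16 regions) and Prex1 (15), which act in GTPase control of adhesion and Rac, and by the signal-ending genes Rgs3 (14) and Rgs1 (12). Their territories were wide, at 140, 280, 258 and 136 kb in that order. Strong promoter regions were those of Rgs14 (22.5), Gnai3 (20.8), Grk5 (19.3), Rgs10 (18.4) and Rgs16 (17.5). Weak ones were those of Grk2 (6.58), Rap1a (7.52), Gng2 (8.07), Coro1a (8.08) and Rap1b (8.38). Promoter regions between these were present at Dock2, Elmo1, Rac1, Rac2, Gnai2, Gnb1, Pik3cg, Pik3r5, Plcb2, Prex1, Rgs1, Rgs2, Rgs3, Rassf5, Rasgrp2, Arrb1, Arrb2 and Grk6. Grk3 had a region away from its promoter, and Gnai1 and Plcb3 had none. The shares with a promoter region were 90.3% for these genes and 14.3% for the ligands, beside 49.1% of all genes.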

How the data were processed

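ATAC-seq peak lists of the whole series were used: pseudoreplicated, IDR ranked and IDR thresholded, all on mm10 and made from 1 alignment, per the README deposited with each library. The sources used here do not give the aligner, peak caller, filters, versions or any transposase shift. The authors' columns were read as a score up to 1000, a signal value (taken as enrichment, reference not given), −log10 p and −log10 q values, and, in the ranked list, −log10 IDR and the ranking values of 2 inputs. The −log10 q, IDR and input columns were identified by the order that the IDR tool writes. They belong to single peaks and were compared only inside their own list.

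Peaks overlapping by 1 bp or more were merged, each region taking its strongest summit. Genes and TSSs were those of GENCODE M21 for chromosomes 1 to 19, X and Y. Chromosome lengths of the reference held every gene and peak. A promoter region lay within 1000 bp of a TSS, and intron numbers refer to the longest protein-coding transcript. The text names all 9 receptors and, from the lists of other chemokine receptors, ligands and signalling genes, those with a promoter region or among the 4 with most regions, except that 1 gene is not reported here. The genes, lists and motifs were chosen with earlier results of these data known. No tests were run, because the lists pool the libraries of 1 group, and Wilson intervals cover counting error only. Alternatives changed the list, distances, TSS set, merging, ranking column, motif window and CpG bounds. The scripts were tested on simulated peaks. Python 3.11.15 with numpy 2.4.6, pandas 2.3.3, scipy 1.17.1 and matplotlib 3.10.9 was used.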

Additional observations from a re-analysis of the deposited data

How the results depend on the processing

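The receptor genes held 34 regions in the thresholded list, 64 in the pseudoreplicated list and 14 when only the gene body counted. The count was 24 at an IDR of 0.01 or below, 34 within 50 kb, 25 within 20 kb, 33 by the nearest TSS alone or with 1 TSS per gene, 30 by the nearest TSS of any annotated gene and 47 with each summit counted. Promoter regions were present at 5 genes, at 8 in the pseudoreplicated list, at 3 with 1 TSS per gene (Ccr8, Cxcr4 and Cxcr6), at 4 at an IDR of 0.01 or below (without Cxcr6), at 5 within 500 bp and at 6 within 2500 bp (with Ccr6). Distal regions above their class median numbered 12, then 13 by −log10 p and 20 when ranked in the pseudoreplicated list, which holds more weak regions. Promoter regions below their class median numbered 7, then 7 and 5. GGGCGG was found in 1 receptor region and in 0 within 50 bp of a summit, against 21.9% of all regions within 50 bp. CACCTG was found in 11 receptor regions, in 9 within 50 bp (8.07% of all regions) and in 12 over every summit (25.9% of all regions). The IRF motif was found in 5 receptor regions and in 2 within 50 bp (3.10% of all regions). Of 81 counts for single genes, 55 stayed within 1.5 times the value reported. At an IDR of 0.01 or below Cxcr5 kept 7 regions, its very weak one among them. At that bound Ccr6, Ccr8 and Cxcr6 kept 1 region each and Cxcr3 had 0. Within 20 kb Ccr2 had 0. The CpG bounds were chosen after seeing the data: the share of all CpG-poor genes with a promoter region was 8.49%, then 5.54% below a ratio of 0.3 and 11.9% below 0.5, and the receptors counted 4 of 7, 3 of 6 and 4 of 7. With 1 TSS per gene, also added later, 2 of 7 receptors and 7.04% of CpG-poor genes had one. In the pseudoreplicated list these were 4 of 7 and 10.4%. Leaving out a library could not be run because the lists are not per library. No paired analysis was possible because there is 1 group. Depth is unknown, so a region missing from a list was not detected there and is not shown to be closed.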
